A study of Mus musculus with 10 samples.

Results

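The ligands, receptors, latent binding proteins and Smads of the TGF-beta pathway that are best known from fibrosis were examined in whole ovaries, as 10 genes of the 55487 rows in the gene table. These were the ligand genes Tgfb1, Tgfb2 and Tgfb3, the receptor genes Tgfbr1, Tgfbr2 and Tgfbr3, the latent binding protein genes Ltbp1 and Ltbp2, and the Smad genes Smad3 and Smad7. Each was found once in the table by its gene symbol, and all 10 passed the filter on low counts that left 18956 genes for testing. The study asked how the ovaries of aged mice differ from those of young mice, and how they differ after CEFFE, the cell-free protein extract of fat tissue.

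The ovaries came from female C57BL/6J mice, with an RNA library for each ovary. The Control group held 4 mice of 8 weeks (replicates 31, 32, 33 and 34), the Aged group 3 mice (replicates 31, 33 and 34) and the Aged+CF group 3 mice (replicates 30, 32 and 34). For both older groups the labels give an age of 11 months and the methods 10 months. The Aged+CF group was injected with 200 μL of CEFFE (3 μg/μL) into the tail vein every 2 days over 2 weeks, while the Control and Aged groups got saline of equal volume. Mice of all 3 groups had been given 10 IU of PMSG, a gonadotropin that stimulates follicle growth, 48 h before the ovaries were collected. The Control mice thus differ from the others in age, and no young mice given CEFFE were analysed here.

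TGF-beta is secreted in a latent form, held by its own propeptide and often tied to the matrix by a latent binding protein, and it has to be released before it can act. Free ligand binds the type II receptor, which recruits and phosphorylates the type I receptor, and that receptor phosphorylates the receptor Smads, which enter the nucleus with Smad4. In fibroblasts the pathway drives the production of collagen and other matrix, and in the ovary its ligands are made by follicle cells and stroma and act on granulosa and theca cells.

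Between 15761789 and 21318254 reads were counted on genes per ovary, and each of the 10 genes had at least 165 reads in every ovary. Levels are given below as CPM (a read count scaled to library size, with TMM factors) within a gene, and as FPKM, which also divides by gene length, between genes. Markers of ovarian cells were present in all groups. Over 12 oocyte markers, the summed CPM ran from 348 to 471 in Control, from 8.93 to 97.3 in Aged and from 133 to 203 in Aged+CF ovaries, with 1 of the 12 at 0 in each of Aged replicates 33 and 34, and that of 9 granulosa cell markers was 4990 to 7900, 3340 to 4420 and 2900 to 4970. Sums of theca and interstitial, luteal, erythroid, endothelial, macrophage and lymphocyte markers were higher in each Aged ovary than in any Control ovary. Those of endothelial and macrophage markers are given further below. For 7 T, B and plasma cell (lymphocyte) markers the sums were 5.25 to 6.65, 10.2 to 186 and 7.08 to 10.3 CPM. Of the 6 that could be tested, 4 were called higher in Aged vs Control at adjusted p, where 5% of all genes were. The sum of 7 theca and interstitial cell markers was 6550 to 11600, 16300 to 33600 and 13200 to 18500 CPM, that of 5 luteal cell markers 985 to 2940, 4270 to 12800 and 4340 to 8810 CPM, and that of 5 erythroid markers 71.8 to 112, 265 to 638 and 109 to 260 CPM. At adjusted p, 5 of 7, 4 of 5 and 5 of 5 of these were called higher in Aged than in Control ovaries, where 5% of all genes were. At unadjusted p, 1 theca and interstitial marker was called lower, and none of these markers was at 0 in any ovary. A pair of libraries stood apart. The summed CPM of 6 oviduct markers was 398 in Control replicate 33 and 310 in Aged replicate 34, against at most 37.8 in the other ovaries. Aged replicate 34 also had the highest sums of 7 fibroblast markers (2140 CPM against 549 to 1010), of 7 smooth muscle and pericyte markers (1590 CPM against 604 to 1220) and of 7 lymphocyte markers (186 CPM against 5.25 to 24.6). Biological variation, as the coefficient edgeR estimates over all genes, was 0.209 among Control ovaries, 0.377 among Aged ovaries and 0.193 among Aged+CF ovaries. In these whole-organ samples, fewer cells of a type and less RNA per cell cannot be told apart. What part these cell markers had in the values below was not tested.

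**Figure D1:**
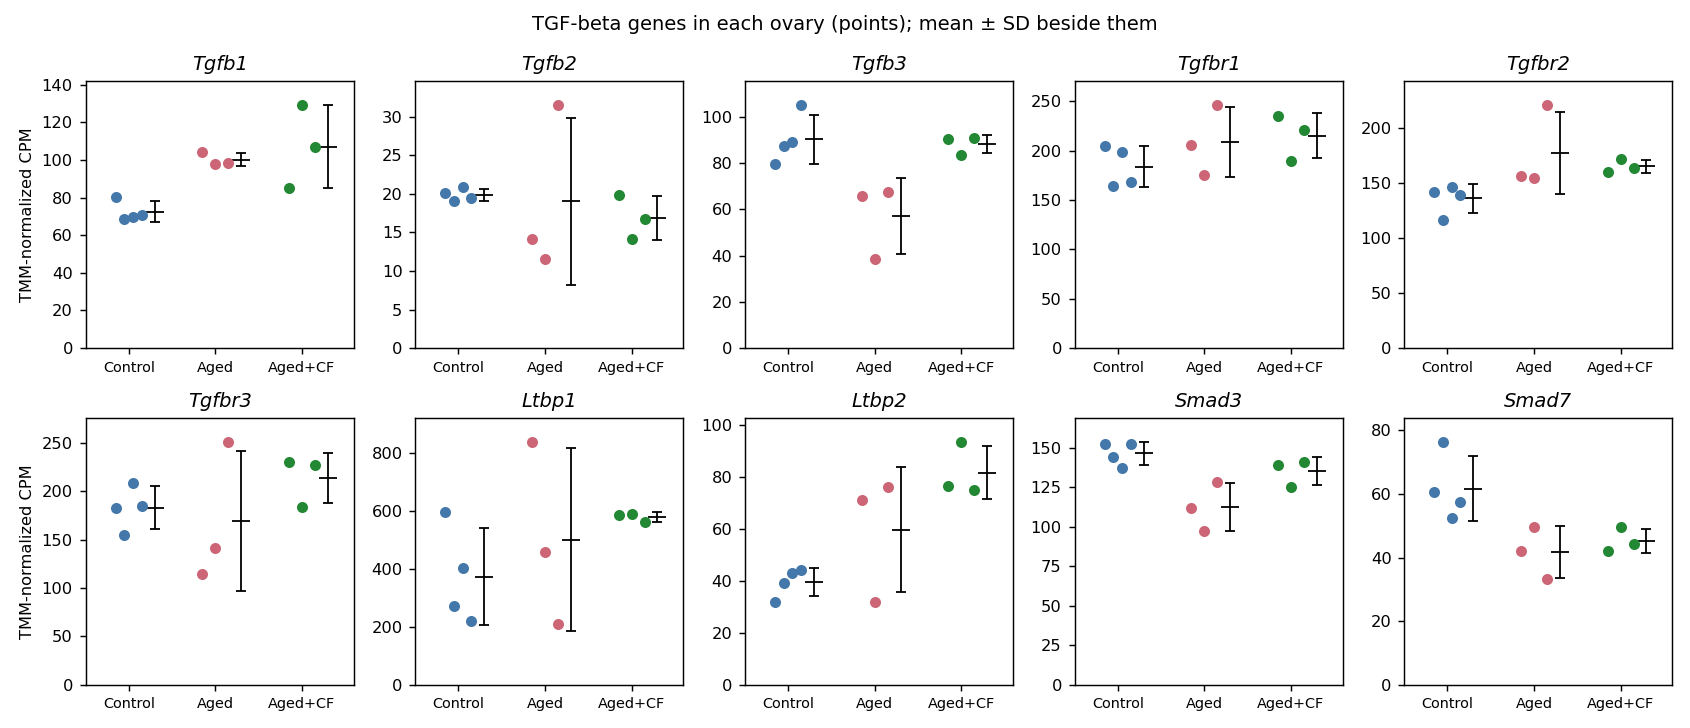
Level of each of the 10 TGF-beta genes in each ovary, in TMM-normalized CPM (vertical axes, from 0), by group (horizontal axes). Points are ovaries and the bars beside them are the mean ± SD. The 3 Aged ovaries lie below all Control ovaries for Tgfb3, Smad3 and Smad7 and above them for Tgfb1 and Tgfbr2, and Ltbp1 spreads from 209 to 839 CPM among Aged ovaries but from 561 to 591 CPM among Aged+CF ovaries.

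A gene was called when edgeR's quasi-likelihood F test gave a p under 0.05 with a change of 1.5-fold or more. The p was either adjusted by the Benjamini-Hochberg method over all genes tested, as in the methods of the study, or unadjusted, as in its results. Of the 10 genes, 1 was called at adjusted p in Aged vs Control, Tgfb3, which was lower in Aged ovaries, where 11.1% of all tested genes were called and 6.06% were called lower. At unadjusted p, 2 of the 10 were called, Tgfb3 lower and Ltbp2 higher, where 18.2% of all genes were called, 9.44% lower and 8.79% higher. With no limit on the fold change, 4 of the 10 passed the adjusted p (Tgfb1, Tgfb3, Smad3 and Smad7), where 15.4% of all genes did. The CPM values of Aged and Control ovaries did not overlap for 5 of the 10, those 4 and Tgfbr2, where 27.5% of all genes did not overlap. The median log2 fold change of the 10 genes was 0.06 and that of all tested genes was 0, with 5 of the 10 above 0 and 5 below.

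After CEFFE, in Aged+CF vs Aged, 0 of the 10 genes were called at adjusted p with edgeR, where 0.00528% of all genes, which is 1 gene, were called. DESeq2 and limma also called 0 of the 10, and 2 of the 10 (Tgfb3 and Smad3) had an unadjusted p under 0.05, where 16.3% of all genes did. With the fold limit, 1 of the 10 was called at unadjusted p, Tgfb3, which was higher after CEFFE, where 7.96% of all genes were called, 3.91% higher and 4.05% lower. Tgfb3 was also the 1 gene of the 10 whose values did not overlap between these groups, where 18.6% of all genes did not. Against the young ovaries, in Aged+CF vs Control, 0 of the 10 were called at adjusted p with edgeR, where 0.179% of all genes were. DESeq2 called 2 of the 10 and limma 1, where they called 528 and 508 of all genes. At unadjusted p, 1 of the 10 was called, Ltbp2, which was higher, where 7.69% of all genes were called, 3.33% higher and 4.36% lower, and 3 of the 10 had a p under 0.05 whatever the fold, where 14.3% of all genes did. Values did not overlap for 4 of the 10 (Tgfb1, Tgfbr2, Ltbp2 and Smad7), where 21.9% of all genes did not. The first and second of these comparisons share the 3 Aged ovaries, so that an ovary that is low in Aged moves both comparisons.

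**Figure D2:**
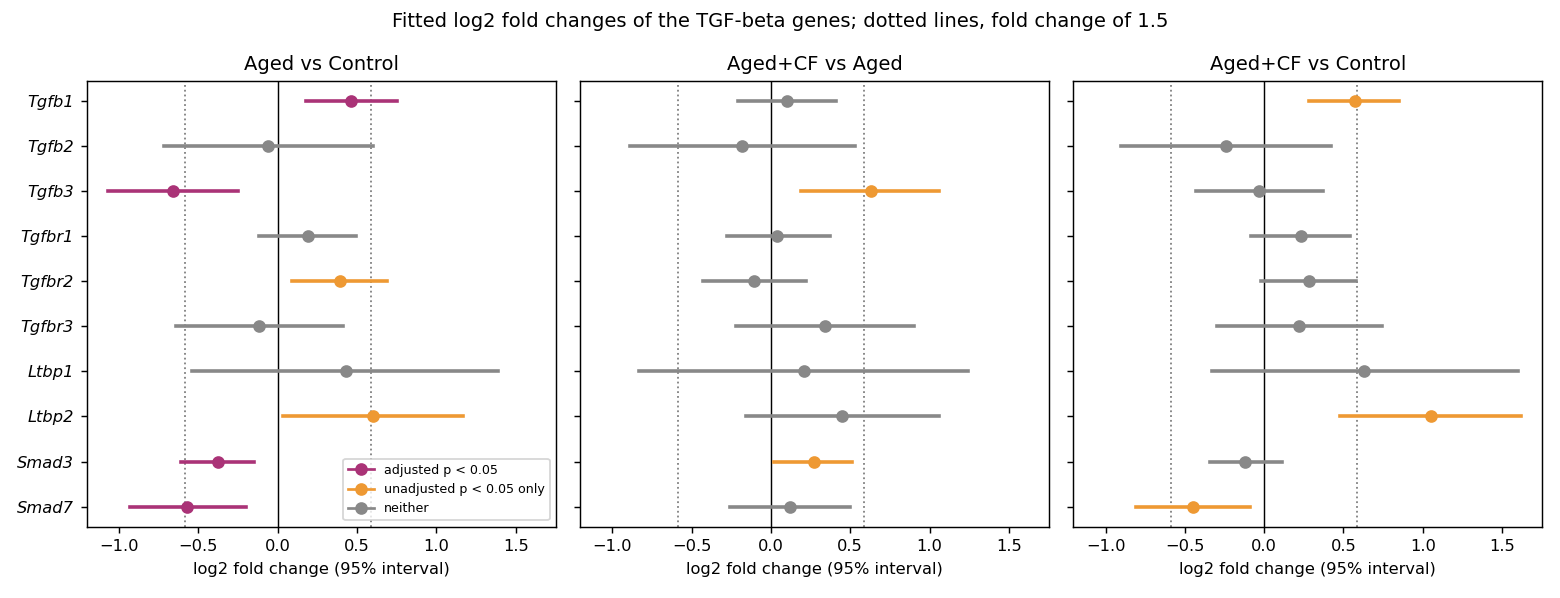
Fitted log2 fold change (horizontal axes) of the 10 TGF-beta genes, with 1 panel for each of the 3 comparisons, from the edgeR fit to all 10 ovaries. Points are estimates, lines their 95% intervals, dotted lines a fold change of 1.5, and colours the p reached. The estimate for Tgfb3 is -0.66 in Aged vs Control, 0.63 after CEFFE (Aged+CF vs Aged) and -0.03 for Aged+CF vs Control, and the intervals for Ltbp1 are the widest of the 10.

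Of the ligands, Tgfb3, which encodes an isoform known from palate and epithelial development and from scarless repair, was the gene that fell in Aged ovaries. Its level was 79.8, 87.5, 89.1 and 105 CPM in the 4 Control ovaries, 65.7, 38.4 and 67.6 CPM in the 3 Aged ovaries and 90.5, 83.7 and 90.8 CPM in the 3 Aged+CF ovaries, in the order of their replicate numbers. Each Aged ovary was thus below each ovary of the other groups, and Aged replicate 33 was the lowest. The means were 90.5 ± 10.8 CPM (SD, n = 4) in Control, 57.3 ± 16.3 (SD, n = 3) in Aged and 88.4 ± 4.01 (SD, n = 3) in Aged+CF ovaries. Between Aged and Control ovaries the log2 fold change was -0.66 (SE 0.18, edgeR adjusted p = 0.0379), a level 1.58-fold lower. After CEFFE, Tgfb3 was 1.54-fold higher than in Aged ovaries (log2 fold change 0.63, SE 0.19, edgeR adjusted p = 0.195), which passed at unadjusted p only. Against Control ovaries, the log2 fold change of Aged+CF ovaries was -0.03 with a 95% interval from -0.43 to 0.37 (edgeR adjusted p = 0.955).

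The call of Tgfb3 in Aged vs Control lay close to the threshold. Its adjusted p ranged from 0.00864 to 0.0962 over 18 alternative fits and was under 0.05 in 8 of them. Leaving out any 1 Control ovary gave 0.0508 to 0.0962, and leaving out any 1 Aged+CF ovary gave 0.0543 to 0.0673. Without Aged replicate 33, the lowest ovary, the adjusted p was 0.0422 but the log2 fold change shrank to -0.41, under the limit of 0.58, and that of Aged+CF against Aged ovaries shrank to 0.41, so that neither was called. The oocyte and granulosa cell marker sums were also lower in Aged than in Control ovaries, with 12 of 12 oocyte markers called lower at unadjusted p and 10 at adjusted p, and 4 of 9 granulosa cell markers at unadjusted p and 0 at adjusted p, where 9.44% and 6.06% of all genes were called lower. The theca and interstitial, luteal, erythroid, endothelial, macrophage and lymphocyte marker sums were higher, as said above. The part of any of these lists in the level of Tgfb3 was not tested.

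Tgfb3 lies on the reverse strand of chromosome 12 (GRCm38, 86056745 to 86079041). Exons of Gm37804 and Gm48008 overlap its exons on the opposite strand, and at most 7 reads were counted on either in any ovary. By the rule for genes with a like pattern, the nearest were Ccdc120 and Gm37422, whose log2 CPM around their own means differed from those of Tgfb3 by a root mean square of 0.09 and 0.1 over the 10 ovaries, against 0.39 for the spread of Tgfb3 itself. Ccdc120 averaged 12.6 CPM over Control, 8.44 over Aged and 12.1 over Aged+CF ovaries.

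Tgfb1, which encodes the isoform most often linked to fibrosis and immune regulation, was at 80.5, 68.5, 69.8 and 70.9 CPM in Control ovaries, at 104, 97.6 and 98.5 CPM in Aged ovaries and at 85, 129 and 107 CPM in Aged+CF ovaries. Every ovary of both older groups was above every Control ovary. The Aged ovaries lay close together and the Aged+CF ovaries spread around them. Aged ovaries differed from Control ovaries by a log2 fold change of 0.46 (SE 0.13, edgeR adjusted p = 0.0389), 1.38-fold and so under the fold limit. Over the 18 alternatives its adjusted p ran from 0.00842 to 0.108 and passed in 8, and with libraries scaled by their totals alone it was 0.108. Aged+CF ovaries differed from Control ovaries by 0.57 (SE 0.13, edgeR adjusted p = 0.118), just under the fold limit, and from Aged ovaries by 0.1 with a 95% interval from -0.21 to 0.41 (edgeR adjusted p = 0.743). The summed CPM of 8 macrophage markers, a cell type that makes much Tgfb1, lay at 329 to 380 in Control, at 440 to 679 in Aged and at 415 to 531 in Aged+CF ovaries, and none of the 8 was at 0 in any ovary. At adjusted p, 2 of the 8 were called, both higher in Aged than in Control ovaries, where 5% of all genes were called higher. The theca and interstitial, luteal, endothelial, erythroid and lymphocyte marker sums were also higher in Aged ovaries. The part of these cells and of macrophages in the level of Tgfb1 was not tested.

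Tgfb1 lies on the forward strand of chromosome 7 (GRCm38, 25687002 to 25705077), and no other annotated gene overlaps it. RefSeq start sites on GRCm38.p6 were on hand for 7 of the 10 genes, not for Tgfb3, Tgfbr3 and Smad7, and the 250 bases before the start are shown for Tgfb1 and Smad3, the 2 of those 7 that passed the adjusted p in Aged vs Control, in opposite directions. Capitals mark GC boxes, GGGCGG on either strand, the kind of element that Sp1 binds. The Tgfb1 bases lie at chr7:25686752-25687001 on the forward strand and those of Smad3 at chr9:63757995-63758244 on the reverse strand.
Tgfb1: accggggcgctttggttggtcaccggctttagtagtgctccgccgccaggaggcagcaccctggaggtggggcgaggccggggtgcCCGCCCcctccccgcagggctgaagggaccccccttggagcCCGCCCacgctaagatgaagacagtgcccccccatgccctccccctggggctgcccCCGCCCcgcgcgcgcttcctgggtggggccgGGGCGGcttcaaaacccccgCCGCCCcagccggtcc
Smad3: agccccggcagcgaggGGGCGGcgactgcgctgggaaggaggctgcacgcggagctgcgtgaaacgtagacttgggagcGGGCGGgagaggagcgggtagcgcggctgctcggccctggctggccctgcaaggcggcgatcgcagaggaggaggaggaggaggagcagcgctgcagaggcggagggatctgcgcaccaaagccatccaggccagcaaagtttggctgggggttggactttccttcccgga
The Tgfb1 window is 75.2% G and C and holds 5 GC boxes, and the Smad3 window is 69.2% G and C and holds 2. A GC box is found in 32.7% of the 32851 upstream windows of the same length in the RefSeq table. Neither window holds the Smad box CAGAC (in 42.2% of all windows), the AP-1 site TGANTCA (6.75%) or the CRE TGACGTCA (1.55%), searched on both strands. None of these 4 motifs contains another.

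Tgfb2, whose product depends most on the co-receptor betaglycan for binding, had the lowest level per gene length of the 10 genes in each group, with a mean of 1.87 to 2.27 FPKM. It was at 20.1, 19.1, 20.9 and 19.5 CPM in Control ovaries, at 14.1, 11.6 and 31.5 CPM in Aged ovaries and at 19.8, 14.1 and 16.7 CPM in Aged+CF ovaries. The Aged ovaries thus held both the lowest level and the highest, the latter in replicate 34, the library with high fibroblast and oviduct markers. Its log2 fold change in Aged vs Control was -0.06 with a 95% interval from -0.72 to 0.6 (edgeR adjusted p = 0.92), and without Aged replicate 34 it was -0.59 (edgeR adjusted p = 0.0256), which passed both limits. The value for Aged+CF against Aged ovaries, -0.18 (edgeR adjusted p = 0.809), turned to 0.38 without that ovary. Exons of the antisense gene Gm29491 overlap those of Tgfb2, and no ovary had more than 3 reads on it.

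**Figure D3:**
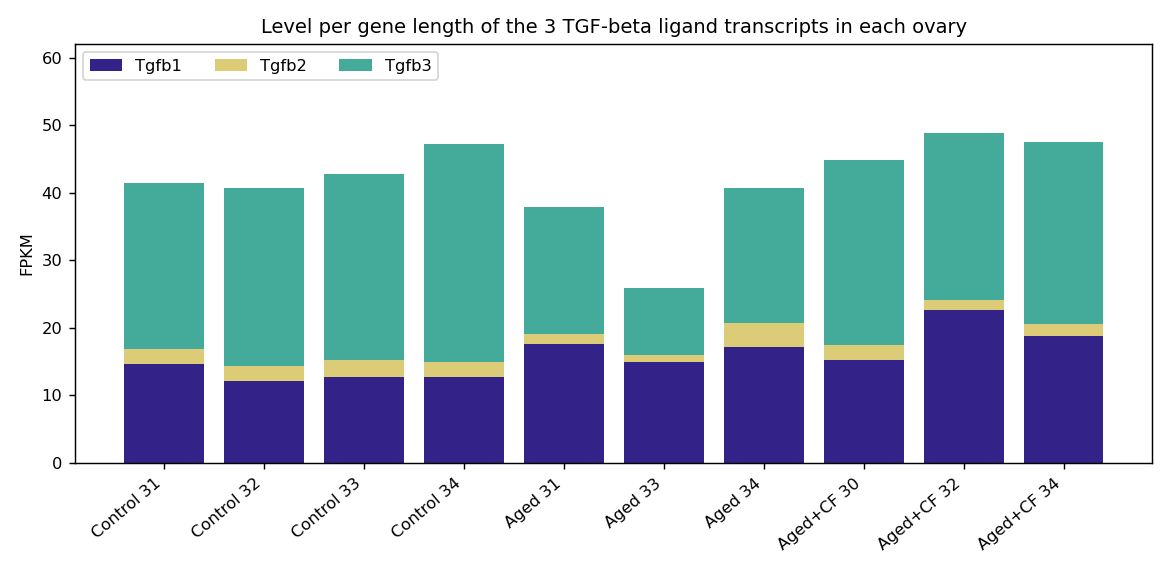
FPKM of the 3 TGF-beta ligand genes (vertical axis, stacked from 0) in each of the 10 ovaries (horizontal axis, by group and replicate number). Tgfb3 makes up 59.1% to 68.2% of the stack in Control ovaries and 38.2% to 49.7% in Aged ovaries, and Tgfb2 is the smallest part in every ovary.

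Per gene length, the 3 ligand genes together were at 43 ± 2.93 FPKM (SD, n = 4) in Control, 34.8 ± 7.88 (SD, n = 3) in Aged and 47.1 ± 2.01 (SD, n = 3) in Aged+CF ovaries. By ovary the Aged sums were 37.9, 25.9 and 40.7 FPKM, against 40.7 to 47.2 FPKM among Control ovaries, so the low Aged mean rested mostly on replicate 33. FPKM carries no TMM factor, and that of Aged replicate 33 (0.871) was the lowest of all ovaries, so group sums on this scale are not like the CPM above. FPKM also rests on 1 fixed length per gene, 3383 bases for Tgfb3, 5709 for Tgfb1 and 9087 for Tgfb2. The shares within an ovary depend on these lengths. In Control replicate 31, Tgfb1 and Tgfb3 had 1380 and 1368 reads. Tgfb3 held 64.1% ± 3.73 of this sum in Control ovaries (SD, n = 4), 45.7% ± 6.46 in Aged (SD, n = 3) and 56.1% ± 5.27 in Aged+CF ovaries (SD, n = 3), and Tgfb1 held 30.6% ± 3.42, 48.8% ± 7.83 and 39.9% ± 6.15. By share, Tgfb3 was the largest of the 3 in each Control and each Aged+CF ovary. In the Aged ovaries it was below Tgfb1 in replicate 33 (38.2% against 57.5%) and above it in replicates 31 and 34. These shares restate the levels above on another scale and were not tested.

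Of the receptors, Tgfbr2, which encodes the type II receptor that binds ligand first, was at 142, 117, 147 and 139 CPM in Control ovaries, at 157, 155 and 221 CPM in Aged ovaries and at 160, 172 and 164 CPM in Aged+CF ovaries. All ovaries of the older groups were above all Control ovaries, with Aged replicate 34 the highest. Its log2 fold change in Aged vs Control was 0.39 (SE 0.13, edgeR adjusted p = 0.0781), which did not pass the adjusted p and was under the fold limit. Without Aged replicate 34 it was 0.24 (edgeR adjusted p = 0.142) and without Aged replicate 33 it was 0.5 (edgeR adjusted p = 0.0492), and DESeq2 gave an adjusted p of 0.0311. Aged+CF ovaries differed by 0.28 from Control ovaries (edgeR adjusted p = 0.372) and by -0.11 from Aged ovaries, with a 95% interval from -0.43 to 0.22 for the latter (edgeR adjusted p = 0.744).

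Tgfbr1, which encodes the type I receptor kinase that phosphorylates Smad2 and Smad3, was at 205, 164, 199 and 168 CPM in Control ovaries, at 206, 175 and 246 CPM in Aged ovaries and at 235, 190 and 221 CPM in Aged+CF ovaries. The groups overlapped in all 3 comparisons. Its log2 fold changes were 0.19 in Aged vs Control, 0.04 after CEFFE and 0.23 between Aged+CF and Control ovaries, with edgeR adjusted p of 0.394, 0.907 and 0.473.

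Tgfbr3 encodes betaglycan, which presents ligand to the signalling receptors and also binds inhibin. It was at 183, 155, 209 and 185 CPM in Control ovaries, at 115, 141 and 251 CPM in Aged ovaries and at 230, 184 and 227 CPM in Aged+CF ovaries. As for Tgfb2, Aged replicate 34 was the highest of the 10 ovaries and the other Aged ovaries were the lowest. Between Aged+CF and Aged ovaries the log2 fold change was 0.34 (SE 0.25, edgeR adjusted p = 0.52), and without Aged replicate 34 it was 0.73 with an adjusted p of 0.0446. Leaving out that ovary also raised the number of all genes called at adjusted p in this comparison from 1 to 556. Between Aged and Control ovaries the log2 fold change was -0.12 (SE 0.24, edgeR adjusted p = 0.779), and without that ovary it was -0.49 with an adjusted p of 0.0463, under the fold limit. The fibroblast marker sum was 2140 CPM in Aged replicate 34 and 793 and 549 CPM in Aged replicates 31 and 33. It was 934 and 982 CPM in Aged+CF replicates 30 and 34, whose Tgfbr3 was at 230 and 227 CPM. Aged replicate 34 also had the highest smooth muscle and pericyte (1590 CPM), macrophage (679), surface epithelium (326), lymphocyte (186) and adipocyte (164) marker sums. Its oocyte marker sum was the lowest (8.93 CPM). The part of any of these cells in the level of Tgfbr3 was not tested. An exon of Gm43422 overlaps Tgfbr3 on the same strand, with at most 35 reads in any ovary.

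Of the latent binding protein genes, Ltbp1 had the widest spread of the 10 genes among Control and among Aged ovaries, and the narrowest among Aged+CF ovaries. Ltbp1, whose product binds the latent ligand and ties it to fibrillin, was at 598, 273, 402 and 221 CPM in Control ovaries, at 839, 458 and 209 CPM in Aged ovaries and at 588, 591 and 561 CPM in Aged+CF ovaries. The highest and the lowest ovary of the series were both Aged, whereas the Aged+CF ovaries were nearly equal. The coefficient of variation of its CPM was 44.9% among Control, 63.2% among Aged and 2.84% among Aged+CF ovaries, beside medians over all tested genes of 13.3%, 22.7% and 12.9%. With 3 or 4 ovaries a group, such coefficients are loosely estimated, and their difference was not tested. Its log2 fold changes were 0.43 in Aged vs Control, 0.21 after CEFFE and 0.63 between Aged+CF and Control ovaries (edgeR adjusted p of 0.543, 0.852 and 0.528), with a 95% interval for the last from -0.33 to 1.6. With 1 ovary left out, the first ran from -0.13 (without Aged replicate 31) to 0.83, and the second from -0.18 (without Aged replicate 34) to 0.78. For the first, the unadjusted p was under 0.05 in 2 of 18 alternatives and the adjusted p in 0.

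Ltbp2 encodes a protein of elastic fibres that, unlike the other members of its family, does not bind latent TGF-beta. It was at 31.9, 39.2, 43.2 and 44.1 CPM in Control ovaries, at 71.3, 32 and 76 CPM in Aged ovaries and at 76.4, 93.5 and 75.2 CPM in Aged+CF ovaries. The Aged+CF ovaries were all above the Control ovaries, while Aged replicate 33 was within the Control range. Its log2 fold change was 1.05 (SE 0.26, edgeR adjusted p = 0.131) in Aged+CF vs Control, 2.06-fold and the largest of the 10 genes in any comparison, which passed at unadjusted p only. For that comparison DESeq2 gave an adjusted p of 0.00676 and limma 0.0221, and without Aged replicate 33 edgeR gave 0.0215. Between Aged and Control ovaries it was 0.6 (SE 0.26, edgeR adjusted p = 0.142), a call at unadjusted p that rested on single ovaries. Leaving out Aged replicate 33 gave 0.93 (edgeR adjusted p = 0.00996), and the call at unadjusted p was lost without Aged replicate 31 (0.48), without Aged replicate 34 (0.42), without any 1 of the 4 Control ovaries (0.51 to 0.65) and without Aged+CF replicate 32 (0.6). Aged+CF ovaries differed from Aged ovaries by 0.45 (SE 0.27, edgeR adjusted p = 0.438). Exons of the antisense gene D030025P21Rik overlap those of Ltbp2, with at most 20 reads in any ovary and at most 1.25% of the count of Ltbp2.

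Both Smad genes were lower in Aged than in Control ovaries at adjusted p, by less than the fold limit. Smad3, which encodes a receptor Smad that carries the TGF-beta signal to DNA, was at 152, 144, 137 and 152 CPM in Control ovaries, at 112, 97.4 and 128 CPM in Aged ovaries and at 139, 125 and 141 CPM in Aged+CF ovaries. Each Aged ovary was below each Control ovary, and Aged+CF ovaries overlapped both groups. Its log2 fold change in Aged vs Control was -0.38 (SE 0.1, edgeR adjusted p = 0.0341), 1.3-fold lower, and it was negative in all 18 alternatives while the adjusted p ran from 0.00698 to 0.091 and passed in 7. After CEFFE, Smad3 differed from Aged ovaries by 0.27 (SE 0.11, edgeR adjusted p = 0.272), with an unadjusted p under 0.05 and under the fold limit. The difference from Control ovaries was then -0.12 with a 95% interval from -0.34 to 0.11 (edgeR adjusted p = 0.642). Smad3 lies on the reverse strand of chromosome 9 (GRCm38, 63646767 to 63757994), upstream of which are the bases shown above.

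Smad7, which encodes the inhibitory Smad that TGF-beta itself induces and that blocks the type I receptor, was at 60.7, 76.3, 52.3 and 57.4 CPM in Control ovaries, at 41.9, 49.7 and 33.4 CPM in Aged ovaries and at 42, 49.5 and 44.2 CPM in Aged+CF ovaries. The ovaries of both older groups were all below the Control ovaries, and those of the older groups overlapped. Its log2 fold change was -0.57 (SE 0.16, edgeR adjusted p = 0.0426) in Aged vs Control, 1.48-fold lower, with an adjusted p that ran from 0.0107 to 0.145 over the alternatives and passed in 5. Aged+CF ovaries differed from Control ovaries by -0.45 (SE 0.16, edgeR adjusted p = 0.261) and from Aged ovaries by 0.12 with a 95% interval from -0.26 to 0.5 (edgeR adjusted p = 0.76). Scaling by library totals alone made the change in Aged vs Control -0.7, past the fold limit, and so did leaving out Control replicate 33 (-0.64) or Aged replicate 33 (-0.68), whereas it was -0.39 without Aged replicate 34 (edgeR adjusted p = 0.102).

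Set side by side, the values of Tgfb3 and Smad3 in Aged+CF ovaries lay near those of Control ovaries (88.4 against 90.5 CPM, and 135 against 146 CPM), while those of Tgfb1 and Smad7 lay near those of Aged ovaries (107 against 99.9 CPM, and 45.2 against 41.7 CPM). Of these 4 genes, only Tgfb3 was called in Aged+CF vs Aged, at unadjusted p. Per gene length, the order of the 10 genes was led by Tgfb3 in Control ovaries (27.6 FPKM), ahead of Smad3 (26.4), Tgfbr3 (24.3), Ltbp1 (23.3) and Tgfbr1 (20.8), neighbours whose ovaries overlapped. Tgfbr2 (13.9), Tgfb1 (13.1), Smad7 (8.24), Ltbp2 (3) and Tgfb2 (2.27) followed, and of these Tgfbr2 and Tgfb1 overlapped. In Aged ovaries Tgfb3 was the seventh in the order at 16.2 FPKM, and each of the first 6 genes overlapped the next. Among Aged+CF ovaries Ltbp1 led at 35.2 FPKM, with its lowest ovary at 33.8 FPKM above the highest ovary of Tgfbr3, the next gene, at 30.2 FPKM. The order within a group depends on the fixed gene lengths behind FPKM, which ran from 3383 bases for Tgfb3 to 16600 for Ltbp1.

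The rest of the pathway was covered by 50 genes in 4 lists, of which 49 could be tested (Itgb6 was too low). Of the 49, 3 were called at adjusted p in Aged vs Control (Eng higher, Thbs1 and Tgif1 lower) and 8 at unadjusted p (4 higher and 4 lower), beside the 11.1% and 18.2% of all genes. After CEFFE, in Aged+CF vs Aged, 0 of the 49 were called at adjusted p with edgeR and 2 with DESeq2, which called 442 of all genes. At unadjusted p, 8 of the 49 were under 0.05, where 16.3% of all genes were. Of those, 2 passed the fold limit (Thbs1 and Cdkn1a, both higher), where 7.96% of all genes did. For Aged+CF vs Control, 0 were called at adjusted p with edgeR and 2 each with DESeq2 and limma, which called 528 and 508 of all genes. At unadjusted p, 10 of the 49 were under 0.05, where 14.3% of all genes were. Of those, 7 passed the fold limit, all higher, where 7.69% of all genes did and 3.33% were higher. Medians of the 49 log2 fold changes were -0.05, 0.19 and 0.08 in the 3 comparisons, beside 0, -0.02 and -0.03 for all genes.

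**Figure D4:**
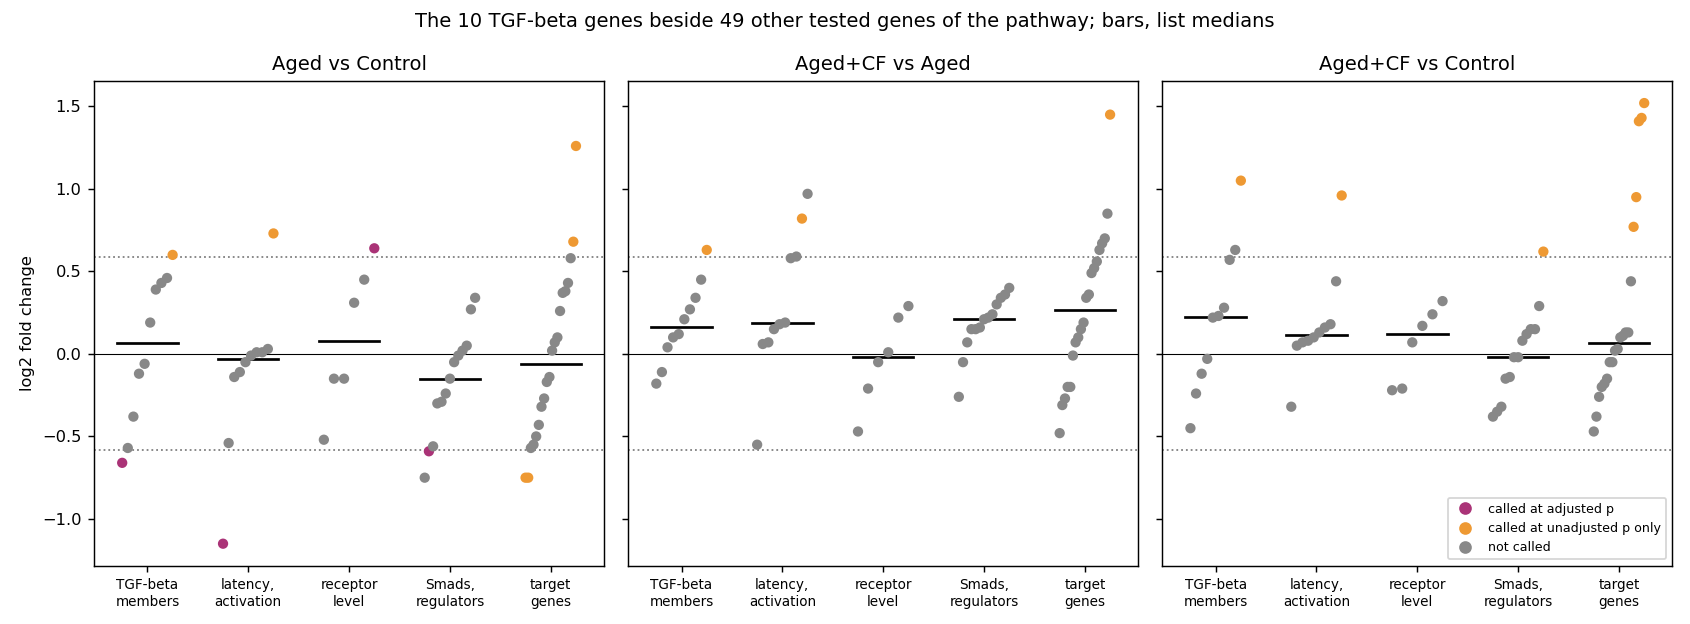
Log2 fold changes (vertical axis) of the 10 TGF-beta genes and of 49 other tested pathway genes in 4 lists (horizontal axis), in each of the 3 comparisons. Points are genes coloured by the call, bars are list medians and dotted lines mark a fold change of 1.5. The lowest value in Aged vs Control is that of Thbs1 at -1.15, and the highest after CEFFE that of Cdkn1a at 1.45.

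Among genes of latency and activation, Thbs1, which encodes thrombospondin-1, an activator of latent TGF-beta, fell in Aged ovaries. It was at 887, 826, 1030 and 849 CPM in Control ovaries, at 509, 348 and 362 CPM in Aged ovaries and at 739, 480 and 938 CPM in Aged+CF ovaries. The Aged ovaries were all below the Control ovaries, and 1 Aged+CF ovary was within the Aged range. The change from Control to Aged ovaries was -1.15 on the log2 scale (SE 0.23, edgeR adjusted p = 0.0125), and Aged+CF ovaries differed from Aged ovaries by 0.82 (SE 0.24, edgeR adjusted p = 0.178), a call at unadjusted p that DESeq2 also made at adjusted p (0.0274) and limma did not (0.137). The former passed the adjusted p in 17 of 18 alternatives. Of the 10 tested genes of this list, the other 9 were not called at adjusted p in Aged vs Control, where 11.1% of all genes were called. Nrros, which anchors latent TGF-beta on macrophages and microglia, was called with Thbs1 at unadjusted p (log2 fold change 0.73, edgeR adjusted p = 0.0559), where 18.2% of all genes were called.

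At the level of receptors, Eng, which encodes endoglin, a co-receptor of endothelial cells, rose in Aged ovaries. It was at 119, 104, 110 and 104 CPM in Control ovaries, at 172, 180 and 158 CPM in Aged ovaries and at 133, 113 and 122 CPM in Aged+CF ovaries. The Aged ovaries were above all others. Aged ovaries differed from Control ovaries by 0.64 on the log2 scale (SE 0.09, edgeR adjusted p = 0.00497), and Aged+CF from Aged ovaries by -0.47 (SE 0.1, edgeR adjusted p = 0.151), the latter under the fold limit. With libraries scaled by their totals alone the first was 0.51, under the fold limit too. The summed CPM of 7 endothelial markers lay at 408 to 485 in Control, at 575 to 710 in Aged and at 483 to 544 in Aged+CF ovaries. At adjusted p, 4 of the 7 were called higher in Aged vs Control, where 5% of all genes were, and none of the 7 was at 0 in any ovary. The part of endothelial cells in the level of Eng was not tested. The other 5 genes of this list, Acvrl1, Bambi, Tgfbrap1, Fkbp1a and Zfyve9, were not called in any comparison.

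Of 13 further Smads and regulators, 1 was called at adjusted p in Aged vs Control, where 11.1% of all genes were called and 6.06% called lower. This was Tgif1, which encodes a homeodomain repressor that binds Smads. Tgif1 was lower in Aged ovaries and lay close to the fold limit. It was at 122, 126, 99.1 and 127 CPM in Control ovaries, at 90.5, 71.8 and 74.1 CPM in Aged ovaries and at 100, 75.1 and 98.4 CPM in Aged+CF ovaries, with no overlap of Aged and Control. Its log2 fold change was -0.59 (SE 0.14, edgeR adjusted p = 0.0218), and it ran from -0.71 to -0.46 over 18 alternatives with an adjusted p from 0.00202 to 0.0769. Leaving out any 1 of Control replicates 31, 32 and 34, Aged replicates 33 and 34, and Aged+CF replicates 30 and 34 took it to between -0.58 and -0.5 and ended the call. Smad4, the shared partner of the receptor Smads, had a log2 fold change of -0.29 (SE 0.08, edgeR adjusted p = 0.0315) in Aged vs Control, under the fold limit, and Smad2 was at 0.05 (edgeR adjusted p = 0.858). Skil was the 1 gene of the 13 called in Aged+CF vs Control, at unadjusted p (log2 fold change 0.62, edgeR adjusted p = 0.18), where 7.69% of all genes were called and 3.33% called higher.

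**Figure D5:**
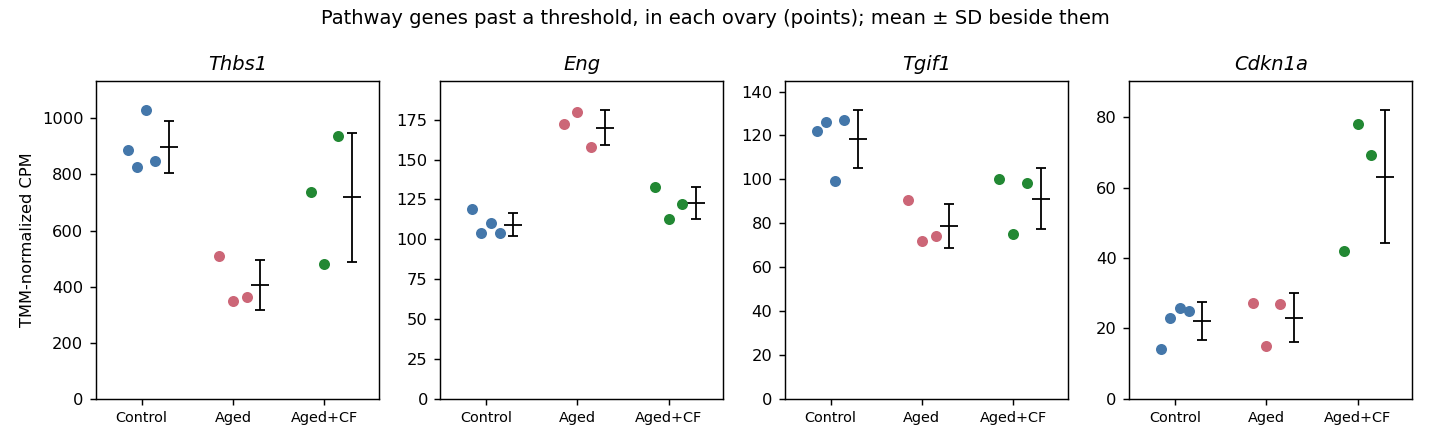
Level of Thbs1, Eng, Tgif1 and Cdkn1a in each ovary, in TMM-normalized CPM (vertical axes, from 0), by group (horizontal axes). Points are ovaries and the bars beside them are the mean ± SD. The Aged ovaries lie apart from the Control ovaries for Thbs1, Eng and Tgif1, and the 3 Aged+CF ovaries lie above the others for Cdkn1a, at 41.9 to 78.2 CPM.

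The 20 target genes, which TGF-beta is known to induce in fibroblasts and other cells, gave 0 calls at adjusted p in Aged vs Control, where 11.1% of all genes were called. They gave 4 at unadjusted p, with Tnc and Cdkn2b higher and Ccn2 and Fn1 lower, where 18.2% of all genes were called. Ccn2, a matricellular growth factor, was at a mean of 119 CPM in Control and 70.7 CPM in Aged ovaries (log2 fold change -0.75, edgeR adjusted p = 0.141), and Fn1, which encodes fibronectin, at 238 and 141 CPM (-0.75, edgeR adjusted p = 0.123). Genes of fibrillar collagen were not called in Aged vs Control, with log2 fold changes of -0.32 for Col1a1 (edgeR adjusted p = 0.531), -0.55 for Col1a2 (0.24) and -0.43 for Col3a1 (0.229). Col1a1 was at 661, 323 and 1070 CPM in the Aged ovaries, with replicate 34 above all Control ovaries (758 to 975 CPM). In Aged+CF vs Aged, Col3a1 was at 0.56 (edgeR adjusted p = 0.291) and Fn1 at 0.7 (0.317), neither called. Of the 20 target genes, 14 were higher and 6 lower in that comparison, where 8990 of all 18956 genes were higher and 9966 lower. An unadjusted p under 0.05 was reached by 2 of the 20, where 16.3% of all genes did so. After CEFFE, Cdkn1a, which encodes the cell cycle inhibitor p21, was the 1 target gene of the 20 called, at unadjusted p, where 7.96% of all genes were called and 3.91% called higher. It was at 14.1, 23.1, 25.9 and 25 CPM in Control ovaries, at 27.3, 15 and 27 CPM in Aged ovaries and at 41.9, 78.2 and 69.4 CPM in Aged+CF ovaries, so that the Aged+CF ovaries stood above all others. On the log2 scale they differed from Aged ovaries by 1.45 (SE 0.31, edgeR adjusted p = 0.159) and from Control ovaries by 1.52 (SE 0.29, edgeR adjusted p = 0.0719). DESeq2 gave adjusted p of 0.00149 and 9.27e-05 for Cdkn1a in these comparisons, and limma 0.0856 and 0.0245. Against Control ovaries 5 of the 20 target genes were called at unadjusted p, all higher, with Cdkn1a, Cdkn2b, Timp1 and Tnc among them, where 3.33% of all genes were called higher. The median log2 fold change of the 20 was -0.06, 0.27 and 0.07 in the 3 comparisons.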

How the data were processed

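RNA from 10 ovaries was used, grouped by their labels, with the replicate numbers in the sample titles. The authors deposited counts of reads on each gene, without normalization, and FPKM values made from these, after alignment with TopHat, Cufflinks 2.1.1 and GRCm38.p4, as the submitters' processing notes name them; the counting tool and its strand setting are not given in the sources used here. All 276532 non-zero FPKM values equalled, within 1%, the count divided by a fixed gene length and the column total. Positions and overlaps were taken from GENCODE on GRCm38.

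The counts were fitted with edgeR 4.0 in R 4.3 across 18956 genes (filter by group, TMM scaling, a mean per group, all 10 ovaries), and tested with the quasi-likelihood F test, two-sided. Intervals are 95%. A prior count of 2 was used for log2 CPM. The fit was also run on simulated counts with the same spread in all groups. As the Aged ovaries varied more than the others, that run says nothing on the unequal spread here. Labels do not say whether ovaries of a group shared a cage or litter.

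The genes and lists were chosen with earlier results of these data known. Named were the 10 genes, up to 3 genes of each pathway list called at adjusted p in Aged vs Control and up to 2 called at unadjusted p in Aged+CF vs Aged, by p, and the 2 genes with at least 1 CPM nearest in pattern to a called gene of the 10. Other pathway genes are named to account for a count or as partners and matrix genes of general interest, and were chosen after their values were seen. Alternatives were no filter, DESeq2's size factors, library totals, only the compared groups, the replicate number as a block, DESeq2 1.42, limma 3.58 with voom and sample weights, no fold limit and leaving out each ovary in turn. Leaving out both libraries with oviduct markers, and the alternative fold changes of single pathway genes, were added after the data were seen. Values of 1 pathway gene are not reported here.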

Additional observations from a re-analysis of the deposited data

How the results depend on the processing

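Counts of calls among the 10 TGF-beta genes were small and moved with most choices. In Aged vs Control the 1 gene called at adjusted p became 0 with no filter, 0 with only the compared groups, 2 with library totals and 4 with no fold limit, and 0 to 2 when 1 ovary was left out. The 2 called at unadjusted p became 1 with only the compared groups, 1 without both libraries with oviduct markers and 1 to 3 when 1 ovary was left out. With no fold limit they became 6, where 31.6% of all genes passed. In Aged+CF vs Aged, 0 became 0 to 1 at adjusted p when 1 ovary was left out, and 1 at unadjusted p became 2 without both oviduct-marker libraries, 2 with no fold limit and 0 to 2 with 1 ovary left out. In Aged+CF vs Control, 0 at adjusted p became 1 with only the compared groups, 2 with DESeq2, 1 with limma and 0 to 1 with 1 ovary left out, and 1 at unadjusted p became 2 with DESeq2's size factors, only the compared groups, DESeq2 or limma, 3 with no fold limit and 1 to 2 with 1 ovary left out. The pathway genes called at adjusted p moved from 3 to 9 with limma and to 2 to 6 with 1 ovary left out in Aged vs Control, from 0 to 2 with DESeq2 and 0 to 3 with 1 ovary left out in Aged+CF vs Aged, and from 0 to 2 with only the compared groups, DESeq2 or limma and 0 to 2 with 1 ovary left out in Aged+CF vs Control. Over all genes, the 2096 calls in Aged vs Control moved as well. They became 1670 with no filter, 1440 with only the compared groups, 2281 with library totals, 2761 with DESeq2, 2813 with limma and 2927 with no fold limit. With 1 ovary left out they ran from 1081 to 3112, the latter without Aged replicate 34, which also gave the 6 pathway genes. Except for the fit with no fold limit, all genes were not counted at unadjusted p in the alternatives. The 1 call in Aged+CF vs Aged became 2 with no filter, library totals or only the compared groups, 442 with DESeq2, 88 with limma and 1 to 556 with 1 ovary left out. The 34 calls in Aged+CF vs Control became 487 with only the compared groups, 528 with DESeq2, 508 with limma and 7 to 348 with 1 ovary left out. The cause was not tested.

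Ovaries with the same replicate number come from different animals, and their deviations from the group means correlated at -0.18 to 0.15, so the numbers were not taken as pairs. With the replicate number as a block, the calls at adjusted p in Aged vs Control were 0 of the 10 genes, 0 pathway genes and 80 of all genes. In Aged+CF vs Aged the block gave 0 calls over all genes, and in Aged+CF vs Control 3 of the 10 at unadjusted p and 9 over all genes.

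Directions turned only for values that had not passed the adjusted p. In Aged vs Control, Tgfb2 ran from -0.59 to 0.22 with 1 ovary left out (0.14 without Aged replicate 31, 0.22 without 33), Tgfbr3 from -0.49 to 0.12 (0.12 and 0.02 without the same ovaries) and Ltbp1 from -0.13 to 0.83, and Cdkn1a was -0.04 with library totals and ran from -0.09 to 0.33 with 1 ovary left out. In Aged+CF vs Aged, limma gave -0.02 for Tgfb1, 0.2 for Tgfb2, 0.01 for Tgfbr2 and -0.22 for Ltbp1, and without both oviduct-marker libraries the values were 0.38 for Tgfb2, 0.07 for Tgfbr2, -0.18 for Ltbp1 and -0.03 for Smad7. With 1 ovary left out, Tgfb1 ran from -0.05 to 0.23, Tgfb2 from -0.43 to 0.38, Tgfbr1 from -0.07 to 0.16, Tgfbr2 from -0.2 to 0.07, Ltbp1 from -0.18 to 0.78 and Smad7 from -0.03 to 0.26. In Aged+CF vs Control, Tgfb3 ran from -0.09 to 0.05. Library totals moved the median log2 fold change of all genes in Aged vs Control from 0 to -0.13 and the share of calls that were higher from 45.2% to 28.5%. Beside that median, Tgfb1 was at 0.34 and Smad7 at -0.7, so that both kept their direction.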

Other observations

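The genes with a pattern most like that of Ltbp1, chosen after its values were seen, were Lrrn1, Wnt10b, Cyfip2, Wdr41 and 5830462I19Rik. Their log2 CPM around their own means differed from those of Ltbp1 by a root mean square of 0.22, 0.28, 0.28, 0.32 and 0.32 over the 10 ovaries, against 0.65 for the spread of Ltbp1 itself. Lrrn1, a leucine-rich repeat membrane protein gene, was at 48.5 to 168 CPM in Control, 44.5 to 148 in Aged and 136 to 148 in Aged+CF ovaries. Wnt10b, a Wnt ligand gene, was at 69.4 to 161, 102 to 207 and 147 to 178 CPM, and Cyfip2 at 114 to 210, 75.3 to 319 and 161 to 186 CPM. Wdr41 was at 74.1 to 146, 78.5 to 208 and 113 to 256 CPM, its widest range being that of Aged+CF ovaries, and 5830462I19Rik at 4.45 to 9.43, 3.25 to 10.7 and 7.64 to 9.17 CPM. As these genes were picked for their likeness to Ltbp1, what they share with it is a description only.

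The lowest coefficient of variation among the 10 genes in Aged ovaries was that of Tgfb1, at 3.24%, and 2.68% of all tested genes had a lower one in that group. In Aged+CF ovaries that of Tgfb1 was 20.7%, and 68.5% of all genes had a lower one. The reverse order was seen for Tgfb3, at 28.5% in Aged and 4.54% in Aged+CF ovaries. With 3 ovaries a group these coefficients were not tested.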
